A study of Bos taurus with 90 samples.

Results

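GADD45G (ENSBTAG00000003033) is described here in the liver of Charolais (CH) and Holstein-Friesian (HF) steers. It is 1 of the 24616 genes counted in 90 liver libraries, and its row was taken by its identifier. The gene was selected on measured values of the same libraries. It had been differentially expressed between residual feed intake (RFI) groups of CH steers under 2 diets, in opposite directions. The RFI values of CH steers under those 2 diets are therefore given as a description, without a test.

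GADD45G codes for growth arrest and DNA damage inducible gamma, a small acidic protein without enzyme activity of its own. Like its relatives GADD45A and GADD45B it acts by binding other proteins. It binds and switches on the kinase MAP3K4, which drives the p38 and JNK stress kinases, and it also binds PCNA, the cyclin B kinase complex and p21, through which it slows the cell cycle. Its transcript is induced quickly by cell stress and by cytokines of the IL-6 family, and it is known in liver as a gene whose expression is often lost in hepatocellular carcinoma. In the RefSeq annotation of the assembly ARS-UCD2.0, the nearest protein-coding genes on either side are DIRAS2 and SEMA4D. Positions on UMD3.1, the build behind the counts, were not used here.

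RFI is the feed an animal eats beyond what its size and growth predict, so that low RFI steers are the efficient ones. Biopsies were taken by percutaneous punch at the end of each of 3 dietary phases, and the most divergent steers were chosen within breed and phase. H1 and H2 were phases on the same barley-based high-concentrate diet with restricted grass silage, and ZG was zero-grazed grass, cut and carried to the animals. Steers passed through H1, ZG and H2 in that order, H1 and ZG as growing and H2 as finishing animals. Grass silage was fed between H1 and ZG, and grass was grazed between ZG and H2. The contrast of H2 with H1 thus compares the same diet at different ages. In it age, finishing stage and the diets in between cannot be told apart. For ZG, diet, age and earlier diets cannot be told apart. On average the steers were under a year old when H1 began, and HF steers were somewhat older than CH steers. CH steers under H1 comprised 9 low and 11 high RFI animals, under ZG 3 and 3, and under H2 9 and 8. HF steers under H1 comprised 7 low and 9 high RFI animals, under ZG 10 and 8, and under H2 5 and 8. The animals came from commercial herds, and the labels name no drug or genetic modification. A biopsy is bulk tissue, in which fewer cells of a type and less RNA per cell cannot be told apart. Markers of hepatocytes and other liver cells could not be matched to identifiers here, so the tissue label was not checked.

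Between 9097695 and 63621304 reads were counted on genes in a library, and GADD45G received 13 to 883 of them. Expression is given in CPM, counts scaled to a common library size with edgeR's TMM method over all 90 libraries. Counting error alone was small against the spread between steers. The library with the fewest GADD45G reads, steer 493 of the CH H2 low RFI group, had 1.44 CPM with a 95% exact Poisson interval of 0.77 to 2.46, which covers counting error only. Of the 73 steer numbers, 1 (steer 1797) was labelled CH under H1 and HF under H2, and its libraries were kept as labelled. The fits without that steer are given where they differ.

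By its mean, GADD45G was highest under H1 in both breeds and lowest under H2. The mean was 11.6 ± 10.4 CPM (SD, n = 36) under H1, 6.36 ± 3.82 CPM (SD, n = 24) under ZG and 4.91 ± 2.64 CPM (SD, n = 30) under H2. In CH steers under H1 the 20 libraries ranged from 3.61 to 66.9 CPM with a median of 8.92. In HF steers under H1 the 16 libraries ranged from 5.37 to 19.2 CPM with a median of 8.80. The medians of both breeds under H1 were thus close, while the upper end was set by CH steers. Under ZG the 6 CH libraries ranged from 3.50 to 15.1 CPM with a median of 5.15, and the 18 HF libraries from 1.02 to 12.7 CPM with a median of 5.41. Under H2 the 17 CH libraries ranged from 1.44 to 9.56 CPM with a median of 4.60, and the 13 HF libraries from 1.74 to 12.3 CPM with a median of 3.67. Ordered by mean log2 CPM, CH H1 (3.32) and HF H1 (3.29) were followed by CH ZG (2.72), HF ZG (2.33), CH H2 (2.17) and HF H2 (2.11). No neighbours in this order differed by more than the larger of their SDs, the widest step being 0.57 from HF H1 to CH ZG against an SD of 0.81.

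**Figure D1:**
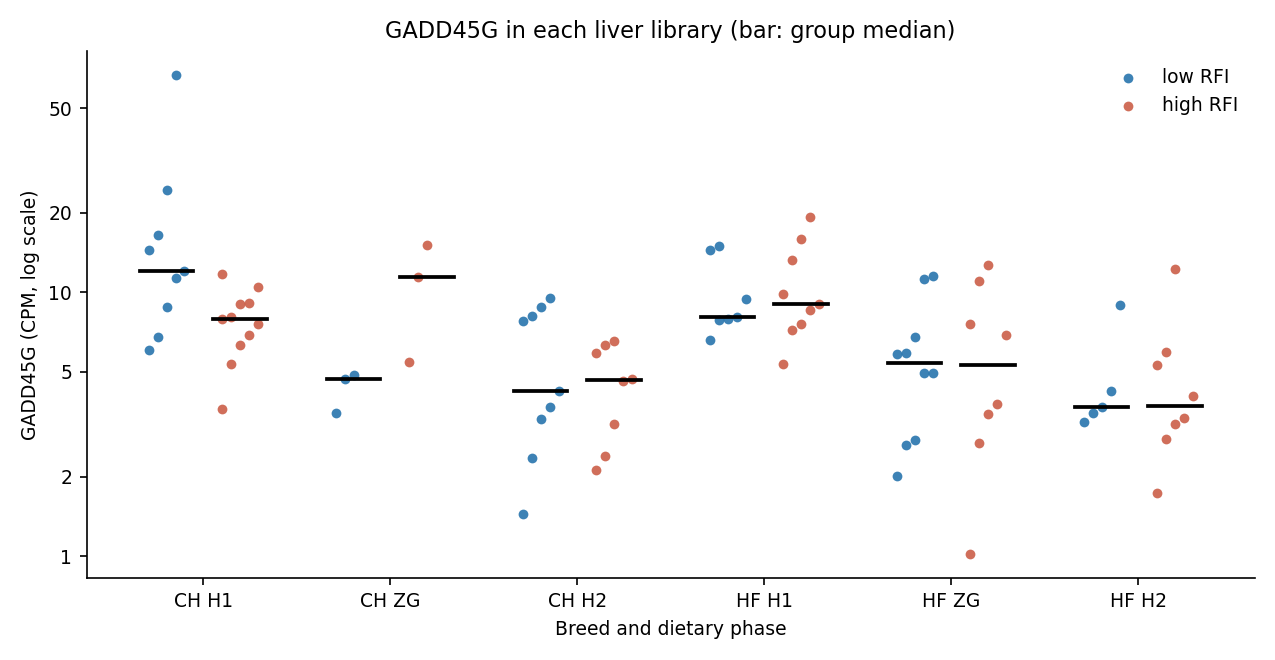
GADD45G in CPM (log axis) in each of the 90 libraries, by breed and phase (x axis) and RFI group (colour), with bars at the group medians. Most H1 libraries lie above most H2 libraries in both breeds, and a single CH H1 low RFI library reaches 66.9 CPM.

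The RFI groups of CH steers under H1 and ZG were the values by which the gene was chosen. Under H1 the low RFI libraries ran from 6.02 CPM in steer 1831 to 66.9 CPM in steer 555, with a median of 12.004. The high RFI libraries ran from 3.61 CPM in steer 443 to 11.8 CPM in steer 854, with a median of 7.90. Low RFI steers were thus spread over both the range of the high RFI steers and the range above it, with 5 of the 9 above every high RFI steer. The mean difference in log2 CPM, low minus high, was 0.88, and 0.60 without steer 555. Steer 555 had 779 GADD45G reads of 10389704, against 883 reads of 34173085 in steer 1816, the next highest at 24.5 CPM. Under ZG the low RFI steers 788, 357 and 1831 had 3.50, 4.70 and 4.87 CPM, while the high RFI steers 307, 437 and 1816 had 5.43, 11.4 and 15.1 CPM. All 3 low RFI steers lay below all 3 high RFI steers, with a mean difference of -1.16 in log2 CPM. Steer 1816 belonged to the low RFI group under H1 and to the high RFI group under ZG, with the second highest CH value in the former and the highest in the latter. Steer 1831 was in the low RFI group in both phases and steer 307 in the high RFI group in both.

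The RFI contrasts that played no part in the choice of the gene were those of CH steers under H2 and of HF steers under each diet. GADD45G did not pass the test in any of the 4. A gene is described as called where its adjusted p (Benjamini-Hochberg, over all genes tested) in edgeR's quasi-likelihood test was under 0.1. For CH under H2, low RFI steers ran from 1.44 to 9.56 CPM with a median of 4.23, and high RFI steers from 2.13 to 6.56 CPM with a median of 4.65. The 4 highest and the single lowest of these 17 libraries all came from low RFI steers. Low over high RFI gave a log2 fold change of 0.29 (edgeR, SE 0.33, 95% interval -0.40 to 0.98, adjusted p = 0.998). For HF under H1, low RFI steers ran from 6.60 to 14.96 CPM with a median of 8.03, and high RFI steers from 5.37 to 19.2 CPM with a median of 9.05. The corresponding log2 fold change was -0.11 (edgeR, SE 0.25, 95% interval -0.64 to 0.43, adjusted p = 0.959). For HF under ZG, low RFI steers ran from 2.02 to 11.5 CPM with a median of 5.41, and high RFI steers from 1.02 to 12.7 CPM with a median of 5.33. Low over high RFI gave -0.07 on the log2 scale (edgeR, SE 0.41, 95% interval -0.92 to 0.79, adjusted p = 1.00). For HF under H2, the low RFI steers 1797, 5612, 2220, 2071 and 1657 had 3.24, 3.49, 3.67, 4.24 and 8.99 CPM. The high RFI steers ran from 1.74 to 12.3 CPM with a median of 3.70, and enclosed every low RFI value. On the log2 scale the difference was -0.01 (edgeR, SE 0.38, 95% interval -0.83 to 0.80, adjusted p = 1.00).

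Two-sided exact permutation tests of the mean log2 CPM gave p = 0.693 for CH under H2 and p = 0.809, p = 0.858 and p = 0.841 for HF under H1, ZG and H2, all 0.858 when adjusted over these 4 comparisons. The background was also empty. edgeR called 0 of 12417 genes (0%) for CH under H2, and 0 of 13025, 0 of 12492 and 0 of 12549 genes (0% each) for HF under H1, ZG and H2. Genes with an unadjusted p under 0.05 numbered 355, 863, 261 and 435 in the same order, and DESeq2 called 4, 26, 2 and 5 genes. The RFI effect under H2 differed between CH and HF by 0.31 on the log2 scale for GADD45G (edgeR, SE 0.53, 95% interval -0.78 to 1.40, adjusted p = 1.00). edgeR called 0 of 12959 genes (0%) for that difference, with 287 genes at an unadjusted p under 0.05, and DESeq2 called 2.

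The clearest differences of GADD45G were between phases. In CH steers the gene was lower under H2 than under H1, and 16 of the 17 H2 libraries lay below the H1 median. On the log2 scale H2 over H1 was -1.28 (edgeR, SE 0.26, adjusted p = 2.77e-05). Both RFI groups were given equal weight in these fits. Without steer 555 the CH value was -1.0001 (edgeR, SE 0.24, adjusted p = 0.000285). In HF steers 11 of the 13 H2 libraries lay below the H1 median and 10 lay below every H1 library. On the log2 scale H2 over H1 was -1.11 (edgeR, SE 0.30, adjusted p = 0.00160). The HF contrast uses none of the libraries that selected the gene, whereas the CH contrast includes the CH H1 libraries. Calls were frequent in these contrasts. edgeR called 9284 of 13945 genes (66.6%) for CH and 8633 (61.9%) for HF between H2 and H1, so that a call by itself set GADD45G apart from few genes. By size its fall was less common, since 4.72% of the tested genes in CH and 7.54% in HF had a larger absolute log2 fold change. These ranks come from the main fit, with steer 555 and without a covariate. GADD45G also varied more between steers than most genes, as described further on.

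GADD45G was also lower under ZG than under H1, with a call in HF steers that was not reached in a fit with one added covariate. There the log2 fold change was -0.77 (edgeR, SE 0.26, adjusted p = 0.0120), and 14 of the 18 ZG libraries lay below the H1 median and 9 below every H1 library. edgeR called 8089 of 13945 genes (58%) in this contrast. With the share of reads on the 10 most counted genes of each library as a covariate, described further on, the HF value was -0.37 (edgeR, adjusted p = 0.281). In CH steers the log2 fold change was -0.82 (SE 0.37, 95% interval -1.56 to -0.08), with an unadjusted p of 0.0295 and an adjusted p of 0.129 from edgeR. Of the 6 CH libraries under ZG, 4 lay below the H1 median and 1 below every H1 library, and the highest, with 15.1 CPM, was inside the H1 range. edgeR called 2476 of 13945 genes (17.8%) in this contrast, 1505 higher and 971 lower under ZG, and with DESeq2 size factors in place of TMM 972 were higher and 1131 lower. Every library of this CH contrast was among those that selected the gene. Whether GADD45G was called in it depended on the fit. DESeq2 gave an adjusted p of 0.0870 and limma-voom with sample quality weights 0.0486, while limma-voom without weights gave 0.173, and 0.152 with a block for the steer. The log2 fold change fell to -0.54 without steer 555 (adjusted p = 0.265 from edgeR).

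Between H2 and ZG GADD45G did not pass the test in either breed. The log2 fold change of H2 over ZG was -0.46 in CH (edgeR, SE 0.36, 95% interval -1.17 to 0.25, adjusted p = 0.533) and -0.34 in HF (edgeR, SE 0.29, 95% interval -0.92 to 0.24, adjusted p = 0.562). In HF 10 of the 13 H2 libraries lay below the ZG median, but none lay below every ZG library, since steer 2242 under ZG had the lowest value of all 90 libraries. edgeR called 393 of 13945 genes (2.82%) in CH and 1010 (7.24%) in HF for this contrast.

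**Figure D2:**
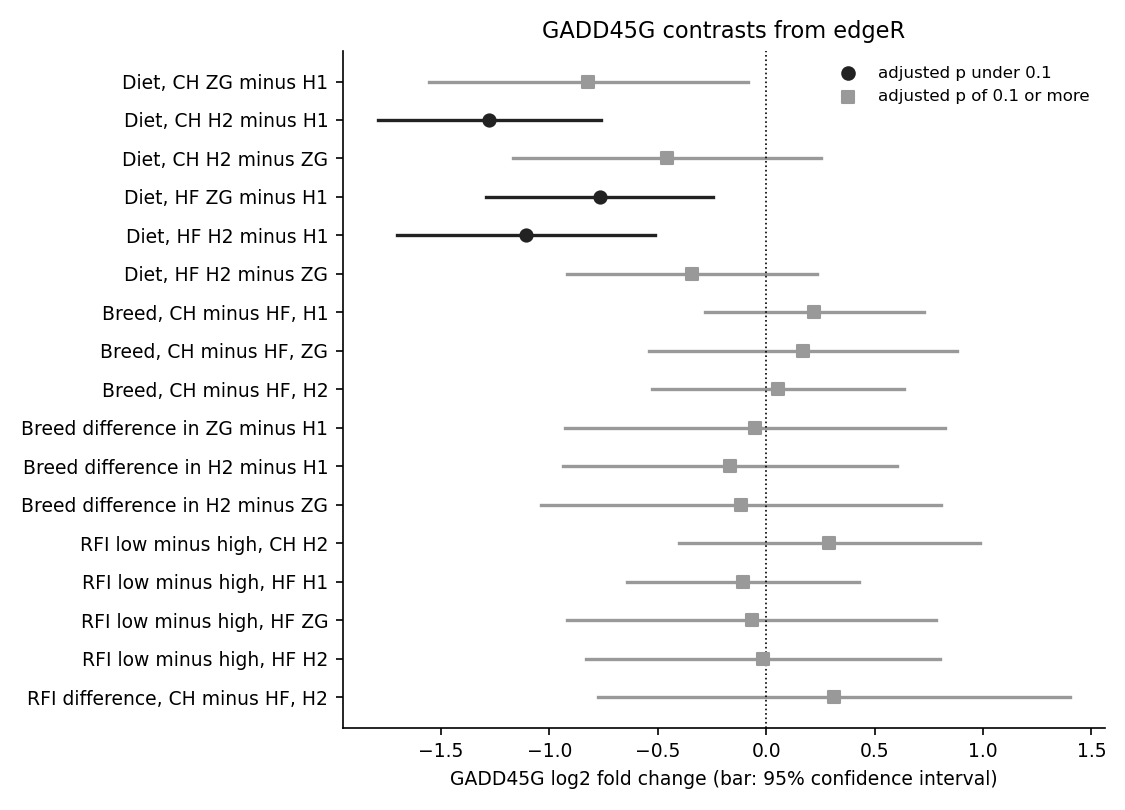
Log2 fold changes of GADD45G (x axis) for 17 contrasts (y axis) from edgeR, with 95% confidence intervals as bars. Black circles mark an adjusted p under 0.1, which H2 against H1 reached in CH and HF and ZG against H1 reached in HF, the last of these not with the share of the 10 most counted genes as covariate. RFI and breed contrasts lie around 0.

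A total of 14 steers had libraries in more than 1 phase within a breed, 6 CH and 8 HF, and each of these steers is its own control. Pairing does not control for differences in make-up between the libraries of a steer. GADD45G was lower under H2 than under H1 in all 8 steers sampled in both. The difference in log2 CPM ran from -2.20 in CH steer 1100, which went from 11.4 to 2.40 CPM, to -0.06 in CH steer 307, which went from 9.15 to 8.80 CPM. The H1 libraries of the CH steers were among those that selected the gene. The 4 HF steers were closer together. Steer 2101 went from 13.2 to 4.05 CPM, steer 5632 from 9.44 to 5.29, steer 2220 from 6.60 to 3.67 and steer 2071 from 7.20 to 4.24. The mean difference was -0.96 ± 0.73 (SD, n = 8) in log2 CPM (exact two-sided sign-flip permutation test, p = 0.00781, the smallest that 8 steers allow, adjusted p = 0.0234 over 3 phase contrasts). In every one of these 8 steers except CH steer 364, the share of reads on the 10 most counted genes, described further on, rose from H1 to H2. The part of that rise in the paired differences was not tested.

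Within-steer changes from H1 to ZG also went one way. All 6 steers sampled in both phases were lower under ZG. The mean difference was -0.89 ± 0.55 (SD, n = 6) in log2 CPM (exact two-sided sign-flip permutation test, p = 0.0312, the smallest that 6 steers allow, adjusted p = 0.0469). In CH steer 1816 fell from 24.5 to 15.1 CPM, steer 307 from 9.15 to 5.43 and steer 1831 from 6.02 to 4.87. Both libraries of each of these CH steers were among those that selected the gene. In HF steer 2065 fell from 8.55 to 2.65 CPM, steer 2069 from 7.59 to 2.68 and steer 5632 from 9.44 to 6.78. The HF falls of steers 2065 and 2069 were the steepest of the 6. In both, the share of reads on the 10 most counted genes, described further on, also rose from H1 to ZG. That share rose in HF steer 5632 and in CH steers 307 and 1831 too, and fell in CH steer 1816. Pairing by steer does not remove such changes, and their part in the paired differences was not tested. From ZG to H2, 3 of 4 steers were lower and steer 307 was higher (mean -1.03 ± 1.52, SD, n = 4, exact permutation test, p = 0.375, where 4 steers cannot go below 0.125). Among the 14 steers, 6 changed RFI group between phases, and the direction from H1 to either later phase was the same in steers that changed and steers that did not. This set of paired differences was examined after the levels had been seen.

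**Figure D3:**
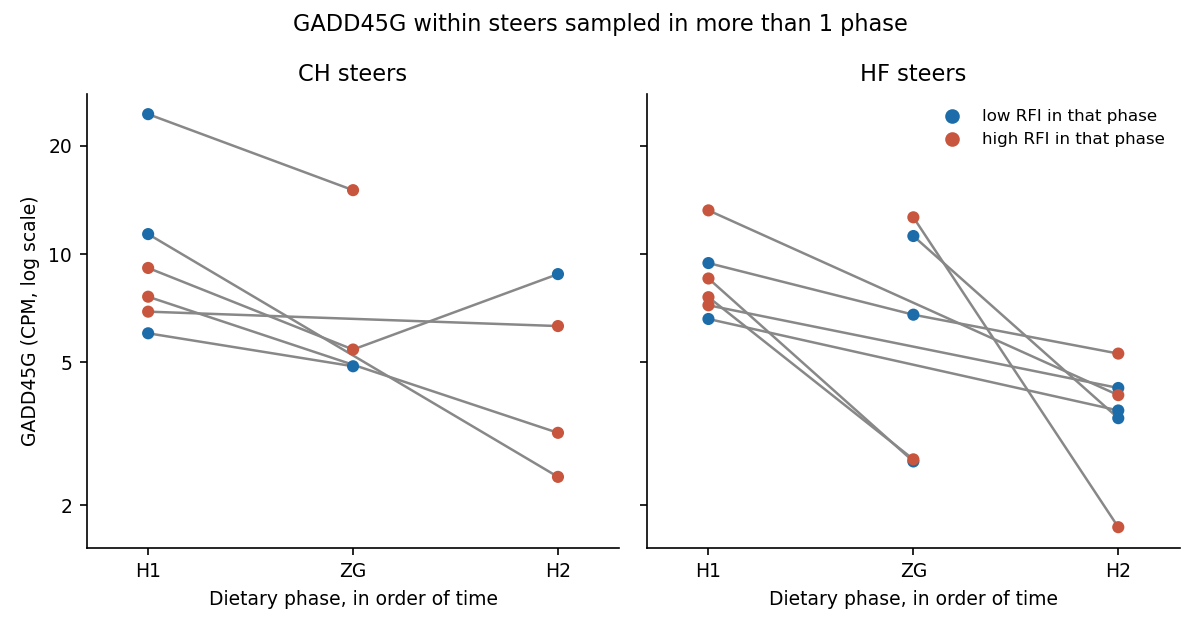
GADD45G in CPM (log axis) for the 14 steers with libraries in more than 1 phase (x axis), CH on the left and HF on the right, with lines joining the libraries of a steer and colours giving the RFI group in that phase. Every line that starts at H1 goes down to its next point, and a single line rises from ZG to H2, in CH steer 307.

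GADD45G was not called between breeds in any phase. CH over HF was 0.22 on the log2 scale under H1 (edgeR, SE 0.25, 95% interval -0.28 to 0.73, adjusted p = 0.952), 0.17 under ZG (edgeR, SE 0.36, 95% interval -0.54 to 0.88, adjusted p = 0.957) and 0.06 under H2 (edgeR, SE 0.29, 95% interval -0.53 to 0.64, adjusted p = 0.999). The value under H1 was -0.05 without steer 555. edgeR called 295 of 13945 genes (2.12%) between breeds under H1, 9 (0.0645%) under ZG and 113 (0.81%) under H2. Whether the change between phases differed between breeds was tested as an interaction. The difference, CH minus HF, was -0.05 for ZG minus H1 (SE 0.44, 95% interval -0.93 to 0.83), -0.17 for H2 minus H1 (SE 0.39, 95% interval -0.94 to 0.60) and -0.12 for H2 minus ZG (SE 0.46, 95% interval -1.04 to 0.81), each with an adjusted p of 1.00 from edgeR. edgeR called 0 of 13945 genes (0%) for each of the 3 differences, with 418, 330 and 761 genes at an unadjusted p under 0.05. DESeq2 called 1 of 19855, 0 of 19855 and 27 of 1611 genes in the same order. For the last of these it tested far fewer genes, and GADD45G had no adjusted p. The falls of GADD45G from H1 were thus not shown to differ between CH and HF.

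GADD45G varied more between steers of a group than most genes did. Its biological coefficient of variation, the spread beyond counting error estimated by edgeR over the 12 groups, was 0.517, against a median of 0.241 over the 13945 genes tested, and 90.4% of genes had a lower value. Among the 2221 genes within 0.5 of its mean log2 CPM, 95.4% had a lower value. The spread was not even over the groups. In CPM the coefficient of variation was 29.3% in CH H1 high RFI steers and 34.3% in HF H1 low RFI steers, compared with 67.5% in HF ZG high RFI and 68.5% in HF H2 high RFI steers. The 3 CH ZG low RFI steers had the smallest value, 17.2%. The CH H1 low RFI group had 102%, and 48.0% without steer 555. Within HF ZG high RFI steers the highest library, steer 1639 with 12.7 CPM, was 12.4 times the lowest, steer 2242 with 1.02 CPM.

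Under ZG in HF and under H2 in both breeds this spread went with the make-up of the libraries. The share of reads on the 10 most counted genes of a library, a measure of how far a few abundant transcripts fill it, ranged from 22.9% to 30.3% in H1 libraries, and its median was 26.3% in both breeds. Under ZG it reached 38.5% in HF with a median of 29.1%, and under H2 38.0% in CH with a median of 30.4%. As deviations from the 12 group means, GADD45G log2 CPM and this share had a Pearson r of -0.58 and a Spearman rho of -0.53 over 90 libraries (permutation test within groups, both p = 1e-05, the smallest that 100000 permutations can give, adjusted p = 2e-05 over 2 relations). Without the 2 libraries farthest from the median share, r was -0.57. The relation did not hold in every phase. Spearman rho was -0.88 in HF ZG (n = 18), -0.68 in HF H2 (n = 13) and -0.61 in CH H2 (n = 17), but 0.16 in CH H1 (n = 20) and 0.03 in HF H1 (n = 16), and -0.20 in the 6 CH ZG libraries. The lowest HF ZG library, steer 2242, had 35.8% of its reads on 10 genes, and the highest, steer 1639, had 23.8%. With log2 library size the relation was weak (r = 0.18, permutation p = 0.145, rho = 0.19, permutation p = 0.0885).

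Since the median share was also above that of H1 under H2 in both breeds and under ZG in HF, though not under ZG in CH (25.9%), the phase contrasts were repeated with it as a covariate, a fit added after the data were examined. H2 over H1 was then -0.69 on the log2 scale in CH (edgeR, SE 0.25, adjusted p = 0.0357) and -0.70 in HF (SE 0.27, adjusted p = 0.0380). ZG over H1 was -0.79 in CH (SE 0.32, adjusted p = 0.0626) and -0.37 in HF (SE 0.24, adjusted p = 0.281). In this fit the decline from H1 to H2 was thus still called in both breeds at a smaller size. The HF difference between ZG and H1 was no longer called. The fit gave all 12 groups a common slope on the share, although rho was 0.16 in CH H1, 0.03 in HF H1 and -0.88 in HF ZG. How far these values rest on the common slope was not tested.

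**Figure D4:**
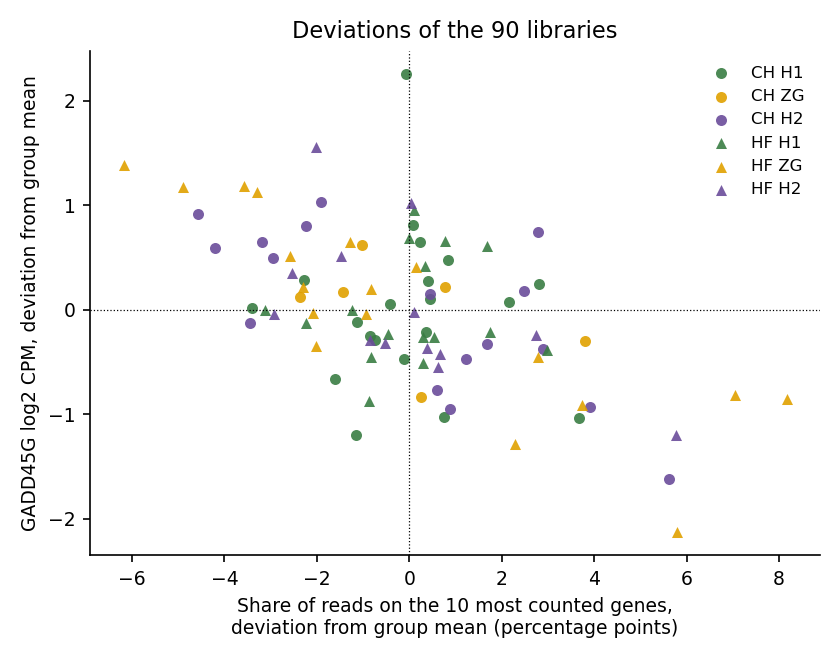
Deviation of GADD45G log2 CPM from its group mean (y axis) against the deviation of the share of reads on the 10 most counted genes, in percentage points (x axis), for 90 libraries by breed (marker) and phase (colour). HF ZG libraries and the H2 libraries of both breeds fall from upper left to lower right, while the few CH ZG libraries show only a weak relation. H1 libraries form a cloud around 0 with steer 555 at the top.

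The genes most like GADD45G were found by Spearman rho of log2 CPM over the 90 libraries, after the means of the 12 groups were removed. These libraries share the make-up described above, and the correlations are descriptions. Of 13944 genes compared, 1535 had a rho over 0.5 and 290 a rho under -0.5, so that GADD45G moved with a broad set and not with a few genes. Its rho with the main axis of variation of all genes within groups, which held 28.9% of the variance, was 0.61. Such counts were not taken for other genes, so the breadth is not shown to be particular to GADD45G. The 10 highest ran from 0.70 to 0.67. Of these, 1 has a name in the sources used here, LOC515624 with a rho of 0.70, and the others include ENSBTAG00000006593 with 0.70 and ENSBTAG00000011214 with 0.70. In HF ZG the rho of LOC515624 with GADD45G was 0.81, in CH H2 0.93, in HF H2 0.91 and in HF H1 0.67. In CH H1 it was 0.30, and in the 6 CH ZG libraries -0.03. Among the 326 named genes compared, the next were SSH3 (rho 0.66), a phosphatase that activates cofilin, FAM173A (0.64) and ABHD8 (0.64). They were followed by ATF5 (0.63), a stress-responsive transcription factor, IRS2 (0.62), an adaptor of the insulin receptor, and XPC (0.61), which recognises DNA damage for nucleotide excision repair. At the other end were STAP1 (-0.58), DOCK11 (-0.57), an activator of the GTPase CDC42, and ITM2B (-0.54).

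Names were available for few genes of the pathways around GADD45G. Of the 7 lists drawn up, on GADD45 proteins with their partners and on p53, early stress factors, fasting, the clock, the acute phase and the cell cycle, 22 genes other than GADD45G could be matched, and GADD45A and GADD45B were not among them. The names come from the study's lists of genes that differed by RFI in these same libraries, so they are no random sample of a pathway. Small parts of the lists were matched, from 2 of 24 genes for p53 to 6 of 20 for the acute phase. The counts below describe only the matched genes. For H2 against H1 in CH, 7 of the 22 genes rose and 10 fell, and in HF 3 rose and 8 fell. For ZG against H1 in HF 3 rose and 9 fell, and in CH 0 rose and 3 fell. Over all genes tested, 31.8% fell for H2 against H1 in CH and 31.1% in HF, 29.2% fell for ZG against H1 in HF and 6.96% in CH. The shares of all genes that rose were 34.8%, 30.8%, 28.8% and 10.8% in the same order. All values of the listed genes come from fits without the share of the 10 most counted genes as covariate. With that covariate fewer genes were called for H2 against H1 in both breeds and for ZG against H1 in HF. More were called for ZG against H1 in CH. The listed genes were not examined with it.

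Of the GADD45 list, CCND1, the cyclin D1 that drives entry into the cell cycle, moved as GADD45G did. Its mean was 11.4 ± 2.54 CPM (SD, n = 20) in CH H1 and 4.64 ± 2.47 CPM (SD, n = 17) in CH H2, which is -1.30 on the log2 scale (edgeR, SE 0.24, adjusted p = 6.41e-06). In HF its log2 fold change was -1.14 for H2 over H1 and -1.06 for ZG over H1. MAP2K6, the kinase that activates p38 downstream of MAP3K4, went the other way. It was at 15.9 ± 4.23 CPM (SD, n = 20) in CH H1 and 23.4 ± 6.86 CPM (SD, n = 17) in CH H2, which is 0.60 on the log2 scale (edgeR, SE 0.12, adjusted p = 2.66e-05), with 0.58 in HF. Within groups the rho with GADD45G was 0.48 for CCND1 and 0.16 for MAP2K6.

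Of the cell cycle list 5 of 20 genes were matched. All 5 fell from H1 to H2 in CH and from H1 to ZG in HF. From H1 to H2 in HF 3 fell, and from H1 to ZG in CH 2. Over all genes tested, 31.8%, 29.2%, 31.1% and 6.96% fell in the same order. The median log2 fold change of the 5 matched genes for H2 over H1 in CH was -1.03, against 0.03 over all genes. Since the 5 have names through the study's RFI lists, they do not stand for the cell cycle genes as a whole. KIFC1, a kinesin of the mitotic spindle, fell from H1 to H2 with a log2 fold change of -1.93 in CH (edgeR, adjusted p = 7.77e-10) and -1.54 in HF. MCM2, a subunit of the replicative helicase, had log2 fold changes of -1.25 in CH and -1.10 in HF. BUB1B, a spindle checkpoint kinase, had -1.03 in CH. Levels were low, with CH H1 means of 2.85 CPM for KIFC1 and 1.97, 1.83 and 1.90 CPM for BUB1, BUB1B and ANLN. Within groups the rho with GADD45G was 0.53 for MCM2 and 0.39 for KIFC1. For BUB1, BUB1B and ANLN it was -0.20, -0.16 and -0.19.

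Of the p53 list XPC and TP53INP1 were matched. XPC fell from H1 to H2, with log2 fold changes of -0.83 in CH and -0.66 in HF, and from H1 to ZG in HF (-0.59). TP53INP1, a stress protein induced by p53, fell in HF from H1 to H2 (-0.47). Of the early stress factors, JUN, a subunit of AP-1, fell from H1 to H2 in CH (-0.60) and HF (-0.46). MYC and NFIL3, both transcription factors, rose in CH, with log2 fold changes of 0.54 and 0.28. Of the fasting list, IRS2 fell from H1 to H2 with log2 fold changes of -1.99 in CH and -2.68 in HF, and SIK1, a kinase that restrains gluconeogenesis, fell in CH (-0.58). The clock repressor NR1D1 rose from H1 to H2 by 0.71 in CH and 0.77 in HF, and NOCT, a rhythmic phosphatase, rose in HF by 1.14. Of the 6 acute phase genes matched, 3 rose in CH from H1 to H2, and 0 of 6 were called in HF. The 3 were the fibrinogen chains FGG by 0.51 and FGA by 0.34 and the haemoglobin carrier HP by 1.75. The HP value had an SE of 0.89 and an adjusted p of 0.0827 (edgeR), with 2009 ± 6227 CPM (SD, n = 17) in CH H2. From H1 to ZG in HF, FGG and FGA were called higher, each by 0.40. Of all genes tested, 34.8% rose in CH from H1 to H2 and 28.8% in HF from H1 to ZG. In the 4 RFI contrasts 21 of the 22 genes passed the filter on low counts, all but M-SAA3.2, and 0 were called by edgeR, where the background was 0% as given above.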

How the data were processed

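Reads of liver mRNA from 90 biopsies (single-end) were trimmed by the authors with cutadapt, aligned to UMD3.1 and counted per Ensembl 87 gene with STAR. The authors deposited raw counts per gene, without normalization. The STAR version was 2.5.3a per the submitters' processing notes. Trimming, alignment and counting are part of the values and could not be varied, and libraries under the authors' depth limit had been discarded. Groups came from the labels.

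Diet, breed and interaction contrasts were fitted with edgeR 4.0.16 (R 4.3.3) in a single fit over 12 groups, with TMM normalization, the filterByExpr filter, robust quasi-likelihood dispersions and RFI groups weighted equally. RFI contrasts were fitted per breed and diet, as in the study. P-values were adjusted over all genes tested (Benjamini-Hochberg), and the SE is the absolute log2 fold change over the square root of F. Log2 CPM used a prior count of 2. Exact permutation tests and figures used Python 3.11.15, scipy 1.17.1 and matplotlib 3.10.9. Alternatives used DESeq2 1.42.0 and limma 3.58.1. The scripts were tested on simulated counts. Libraries of a steer were paired by the steer number in their titles, with a consensus correlation of 0.13 within steers in limma.

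Named genes are GADD45G, called members of 7 lists (at most 3 per list and contrast, by smallest p, plus members needed for a count) and the genes most like GADD45G. The gene and the lists were chosen with earlier results of these data known. Names were taken from the 327 identifiers that the study's gene lists name. Cell type markers were not matched and not analysed here. P-values of the RFI tests within a breed and phase measure the spread between steers. In the fit over 12 groups and the permutation of the share, libraries of one steer were treated as independent. The limma fit with a steer block and the paired tests did not do so.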

Additional observations from a re-analysis of the deposited data

Results flagged for a closer look

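Dixon's ratio was taken in the 9 groups of 4 to 10 libraries. In 3 of them 1 GADD45G value in CPM stood far from the others at the 95% level. That level supposes normally distributed values, under which chance flags about 1 group in 20. CPM values were not checked for this, and each flagged value was the highest of its group. In the CH H1 low RFI group steer 555 had 66.9 CPM, while the next highest had 24.5. In the HF H2 high RFI group steer 5588 had 12.3 CPM, while the next had 5.94. In the HF H2 low RFI group steer 1657 had 8.99 CPM, while the next had 4.24. On the log2 scale 1 of the 9 groups was flagged, the HF H2 low RFI group. Their shares of reads on the 10 most counted genes were 26.1%, 27.0% and 29.7%, inside the range of their groups. The cause of these values was not tested.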

How the results depend on the processing

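Across the alternatives that gave an adjusted p, the direction and the side of the threshold of GADD45G held in 215 of 248 refits over 17 contrasts, with 29 reversals of sign, 3 calls gained and 1 lost. No value that reversed was called in any setting. H2 against H1 was called in both breeds in every alternative, from -1.34 to -0.69 in CH and from -1.31 to -0.70 in HF. ZG against H1 in CH gained a call with limma-voom quality weights (-0.76), DESeq2 (-0.86) and the share of the 10 most counted genes as covariate (-0.79), and the cause was not tested. ZG against H1 in HF lost its call with the same covariate (-0.37). The CH contrast of ZG with H1 rests wholly on libraries that selected the gene.

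Reversals were as follows. With the covariate, H2 against ZG in CH was 0.11, the breed difference under ZG was -0.19, and the breed differences in H2 minus H1 and H2 minus ZG were 0.012 and 0.43. Without steer 555, breed under H1 was -0.054 and the breed differences in ZG minus H1 and H2 minus H1 were 0.22 and 0.11. Without steer 1797, breed under H2 was -0.0013 and RFI in HF H2 was 0.10. With quality weights, the breed differences in ZG minus H1 and H2 minus H1 were 0.11 and 0.078, and without the low count filter RFI in HF H2 was 0.00093. In limma-voom with steers as a replicate block, these breed differences were 0.26 and 0.087 and RFI in HF H2 was 0.11, while limma-voom without the block gave 0.29, 0.047 and 0.079, and RFI in HF ZG was 0.018. The block changed no call. For CH ZG against H1 it gave an adjusted p of 0.152 (limma).

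Leaving out 1 library of a group of 5 or fewer moved CH ZG against H1 between -0.99 and -0.66, CH H2 against ZG between -0.61 and -0.29, HF H2 against ZG between -0.53 and -0.28, breed under ZG between 0.0020 and 0.33 and under H2 between -0.0012 and 0.24, the breed differences between -0.22 and 0.10 (ZG minus H1), -0.22 and 0.019 (H2 minus H1) and -0.27 and 0.070 (H2 minus ZG), RFI in HF H2 between -0.38 and 0.10 and the RFI difference between breeds under H2 between 0.20 and 0.67. Steers 1816 and 307 set the CH ZG, CH H2 against ZG and breed under ZG ranges, and steers 1657 and 1797 those of HF H2, and none of these values was called. The count of genes called moved by over 1.5 times in some alternatives, for CH ZG against H1 from 322 to 5274 beside 2476, for CH H2 against ZG from 57 to 4500 beside 393 and for HF H2 against ZG from 419 to 3146 beside 1010. The lowest counts of the other phase contrasts came with the covariate, 4402 beside 9284 (CH H2 against H1), 3837 beside 8089 (HF ZG against H1) and 5436 beside 8633 (HF H2 against H1). Breed called 130 to 669 genes under H1 beside 295, 0 to 78 under ZG beside 9 and 40 to 333 under H2 beside 113. Of the 10 genes most like GADD45G, 6 were shared with the 10 by Pearson r, 3 without removal of group means and 6 without steer 555.

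The precision was limited by the groups of 3 CH steers under ZG and by the spread of GADD45G between steers. The steer-paired differences, the covariate, limma-voom without the block and the fits without steer 555 were chosen after the data were seen.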
